A study of Mus musculus with 12 samples.

Results

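MHC class II and its transactivator were followed as 7 genes across all 12 libraries of the series, chosen by gene symbol from the 32544 genes of the count table. The genes were Ciita, the class II chains H2-Aa, H2-Ab1 and H2-Eb1, the invariant chain Cd74, and the peptide editors H2-DMa and H2-DMb1. All 7 were among the 14285 genes that passed the filter on low counts. RNA-seq had been performed on bone marrow-derived macrophages (BMDMs) and on NIH/3T3 cells, a mouse fibroblast line, with 3 libraries in each of 4 groups. BMDMs were labelled WT or PHD2cko and harvested 24 h after seeding. The label PHD2cko stands for loss of PHD2, an oxygen sensor encoded by Egln1, by Cre under the lysozyme M promoter, which is active in myeloid cells. The WT controls carried the same Cre, and both genotypes lacked the LDL receptor on a C57BL/6J background. The sources used here give no age for the mice and do not say whether the libraries of a group came from separate animals, so p-values measure the spread between these libraries, which may be technical. All BMDMs had been grown with medium from L929 cells, a source of macrophage growth factor. The 3T3 cells were serum-starved and then kept for 72 h in medium conditioned by BMDMs of either label. The oxygen condition of the sequenced cultures is not named.

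MHC class II molecules are heterodimers of an α and a β chain that carry peptides from the endosomal pathway to CD4+ T cells. The invariant chain holds the peptide groove closed until the dimer reaches endosomes, where cathepsins degrade it and H2-DM exchanges its last fragment for peptide. CIITA does not bind DNA itself: it is recruited by RFX, CREB and NF-Y proteins on the X and Y boxes of these promoters, and in macrophages its own gene is classically induced by interferon-γ.

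Egln1 was checked first. Its level was 55.4 ± 0.574 counts per 1e6 counts (CPM, scaled by TMM) in WT and 69.6 ± 1.77 CPM in PHD2cko BMDMs (SD, n = 3 each), so the targeted transcript was higher, not lower, under the PHD2cko label (log2 fold change 0.33, edgeR adjusted p = 0.00203). Its count does not resolve exons, and the groups are therefore referred to by their labels. PHD2 marks the transcription factor HIF for degradation. Of 9 known HIF target genes, picked outside the fixed lists, 7 were higher under the PHD2cko label, where 3.38% of all genes were called higher. Among the 7 were Egln3 (4.32 ± 0.247 and 16.8 ± 0.700 CPM, edgeR adjusted p = 1.80e-07) and Pdk1 (61.4 ± 2.34 and 119 ± 2.49 CPM, edgeR adjusted p = 4.83e-08). The other two, Vegfa (log2 fold change −0.03) and Car9 (0.12), did not pass (edgeR adjusted p = 0.873 and 0.862). Total counts ran from 15516465 to 25199770 per library. All 20 macrophage markers of a fixed list were detected in the BMDM libraries, with a summed level from 44536 to 46034 CPM in WT and from 39995 to 42187 CPM in the libraries labelled PHD2cko. Of these markers 1 passed the threshold, Cd5l, which was higher (569.9 ± 9.76 and 1217 ± 25.7 CPM, edgeR adjusted p = 4.45e-05). Lyz2, the most abundant, was at 16423 ± 431 and 11633 ± 445 CPM without overlap between the groups (SE 0.376, edgeR adjusted p = 0.57). The fit shares its spread with the 3T3 libraries, where Lyz2 had 3610, 659 and 3481 counts in PHD2cko medium. In BMDMs, 10 of the 20 markers had groups apart as higher and 5 as lower, where 15.6% of all genes were apart as lower. A missed threshold therefore does not show that these markers were unchanged. The 10 fibroblast markers summed to 20093 CPM or more in each 3T3 library and to at most 5.93 CPM in BMDMs.

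The promoters of class II genes are the place where the transactivator acts, and their letters are shown for this reason. RefSeq promoter windows on GRCm38.p6, from 250 bases before to 50 after the annotated start, were given for 4 of the 7 genes, H2-Aa, H2-Eb1, H2-DMa and H2-DMb1. Each window was searched on both strands for an X box core, CNNGNAAC, and a Y box core, TGATTGG, with the Y core 20 to 30 bases after the X core. The motifs and the spacing were settled after the sequences had been seen. The stretch around both cores is shown for H2-Aa (chr17:34287857-34287917, minus strand), for H2-Eb1 (chr17:34305763-34305822, plus strand) and for H2-Ob (chr17:34238805-34238862, plus strand), a class II chain gene outside the 7, with the X and Y cores in capitals.
H2-Aa: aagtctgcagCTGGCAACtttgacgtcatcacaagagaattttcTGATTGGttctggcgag
H2-Eb1: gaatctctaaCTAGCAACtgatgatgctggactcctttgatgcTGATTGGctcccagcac
H2-Ob: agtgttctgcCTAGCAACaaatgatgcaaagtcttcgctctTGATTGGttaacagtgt

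The cores lay 26 bases apart in H2-Aa, 25 in H2-Eb1 and 23 in H2-Ob. H2-DMb1 also held the pair, 26 bases apart, whereas neither window of H2-DMa held the Y core. Of 32851 promoter windows, 39.1% held the X core, 7.82% the Y core and 25 (0.0761%) the pair with this spacing. A match is a description of the letters, not of a bound site. The 12 other genes that held the pair and were tested are set beside the members after the BMDM values.

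The question of the first comparison was whether macrophages labelled PHD2cko differed from WT. All 7 genes were lower in BMDMs labelled PHD2cko, at an adjusted p under 0.05 in edgeR's quasi-likelihood test, against 3.35% of all 14285 genes tested that were called lower. In each of the 7, every library labelled PHD2cko lay below every WT library, a separation that 15.6% of all genes showed in this direction. The median log2 fold change of the 7 was −0.63, beside 0.00022 over all genes, and 7.18% of genes had a log2 fold change at or below that of the least changed member, H2-DMb1.

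Ciita encodes the transactivator and lies on chr16:10480059-10528418 of GRCm38, on the plus strand. WT libraries 1, 2 and 3 held 1378, 1294 and 1287 estimated counts and those labelled PHD2cko 790, 657 and 944. After scaling, WT libraries were at 89.5, 78.3 and 78.3 CPM and the others at 48.0, 44.9 and 49.5 CPM. The groups lay well apart, and WT replicate 1 was the highest. Mean levels were 82.0 ± 6.43 CPM in WT and 47.5 ± 2.38 CPM in PHD2cko (SD, n = 3 per group). The log2 fold change was −0.79 (SE 0.0783, edgeR adjusted p = 5.02e-05), which was the most negative of the 7. Dexi, a gene on the opposite strand that overlaps Ciita, was at 18.5 ± 1.20 and 14.7 ± 1.84 CPM (log2 fold change −0.33, edgeR adjusted p = 0.115). Of the 31-base words in Ciita transcripts, 2.77% also occur in other genes, and Dexi holds more of them than any other single gene.

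H2-Aa encodes the α chain of the I-A molecule and H2-Ab1 its β chain. H2-Aa (chr17:34282744-34287823, minus strand) was at 289, 275 and 280 CPM in WT and at 187, 203 and 207 CPM in PHD2cko BMDMs. H2-Ab1 (chr17:34257689-34269419, plus strand) was at 243, 227 and 238 CPM in WT and at 145, 153 and 155 CPM in PHD2cko. Neither chain overlapped between the groups. H2-Aa fell by 0.50 on the log2 scale (SE 0.0777, edgeR adjusted p = 0.00164) and H2-Ab1 by a log2 fold change of −0.64 (SE 0.0676, edgeR adjusted p = 8.01e-05).

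H2-Eb1 encodes the β chain of I-E, whose α chain gene H2-Ea is inactive in C57BL/6 mice. H2-Eb1 (chr17:34305867-34316674, plus strand) was at 181, 166 and 182 CPM in WT and at 113, 114 and 114 CPM in the libraries labelled PHD2cko. The latter spread least, relative to their mean, of all sets of BMDM values given here for the 7 genes (114 ± 0.661 CPM, SD, n = 3), and the log2 fold change was −0.63 (SE 0.0605, edgeR adjusted p = 3.8e-05).

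Cd74 encodes the invariant chain and was the most abundant of the 7. It lies outside the MHC, on chr18:60803848-60812652. Its counts were 16512, 16883 and 17225 in WT and 10100, 9551 and 13159 in PHD2cko, equal to 1072, 1022 and 1048 CPM and to 613, 652 and 691 CPM. Every library labelled PHD2cko lay far below the lowest WT library. The log2 fold change was −0.68 (SE 0.109, edgeR adjusted p = 0.00206), the largest SE of the 7.

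H2-DMa and H2-DMb1 encode the α and β chains of H2-DM, the class II peptide exchanger. H2-DMa (chr17:34119541-34139101, plus strand) was at 67.6, 69.3 and 67.0 CPM in WT and at 44.9, 47.6 and 47.0 CPM in PHD2cko. H2-DMb1 (chr17:34153072-34160230, plus strand) was at 93.9, 93.3 and 92.4 CPM in WT and at 65.4, 71.1 and 70.4 CPM in PHD2cko. Both were lower in every library labelled PHD2cko, with log2 fold changes of −0.55 (SE 0.0770, edgeR adjusted p = 0.000794) for H2-DMa and −0.43 (SE 0.0727, edgeR adjusted p = 0.00275) for H2-DMb1. H2-DMb1 shares 31.4% of its 31-base words with its neighbour and paralog H2-DMb2, so its count is uncertain to the extent that reads were split between them. H2-DMb2 itself was at only 1.90 ± 0.258 and 1.74 ± 0.388 CPM in BMDMs. H2-DMa shares 9.23% of its words with Brd2 on the opposite strand, which was at 262 ± 3.30 and 260 ± 7.18 CPM (log2 fold change −0.01).

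**Figure D1:**
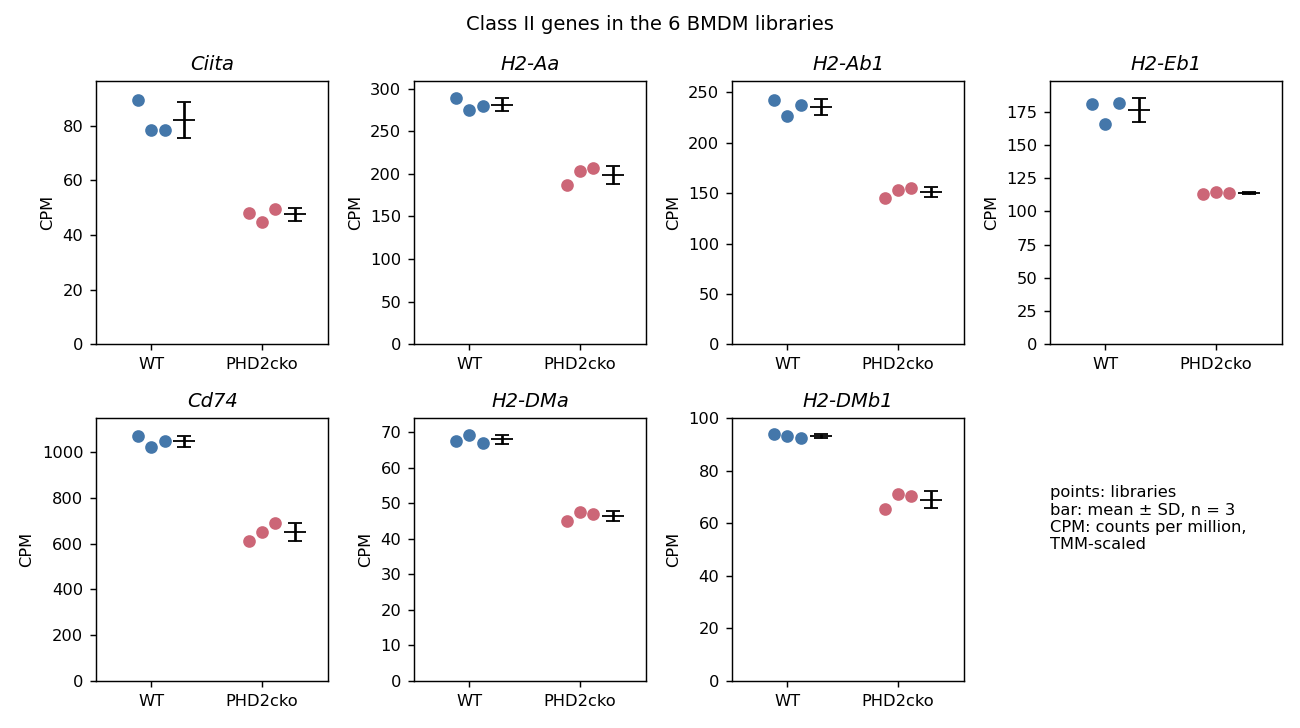
Levels of the 7 genes in the 6 BMDM libraries, in TMM-scaled CPM on linear axes from 0, with 1 point a library and the mean ± SD beside it (n = 3). In all 7 panels the 3 libraries labelled PHD2cko sit below the 3 WT libraries, at 47.5 against 82.0 CPM for Ciita and at 69.0 against 93.2 CPM for H2-DMb1.

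Set per length of transcript, the genes were spread widely. In WT BMDMs, levels per length, scaled to a sum of 1e6 per library, were 1330 ± 23.6 for Cd74, 392 ± 11.1 for H2-Ab1, 260 ± 5.26 for H2-Aa, 216 ± 9.72 for H2-Eb1, 144 ± 1.53 for H2-DMb1, 96.2 ± 2.34 for H2-DMa and 31.8 ± 2.37 for Ciita (SD, n = 3). Each neighbour in this order was separated by more than these SDs, and the same order held in PHD2cko BMDMs, from 832 ± 42.1 for Cd74 to 18.5 ± 0.738 for Ciita. The order of the 3 chains depended on the length used: with the union of exons in place of the mean transcript, H2-Ab1, H2-Eb1 and H2-Aa were at 268, 264 and 216. Cd74 lay above 99.5% of the genes kept in WT BMDMs and Ciita above 64.7%.

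Ratios between the members were taken within each BMDM library. The count of Ciita, taken as a ratio to the summed counts of the 3 chains, was 0.118 ± 0.00681 in WT and 0.102 ± 0.00634 in PHD2cko (SD, n = 3). The Cd74 ratio to the chains went from 1.51 ± 0.0174 to 1.40 ± 0.0411, and that of both H2-DM genes together from 0.233 ± 0.00952 to 0.249 ± 0.00293. H2-Aa relative to H2-Ab1, the chains of 1 dimer, went from 1.19 ± 0.0178 to 1.31 ± 0.0240. In these 4 ratios the groups did not overlap, and a two-sided exact permutation test gave p = 0.1 for each, which is the smallest that 3 against 3 allows (0.125 after Benjamini-Hochberg adjustment over 5 ratios). H2-Eb1 relative to H2-Ab1 was 0.747 ± 0.0178 and 0.751 ± 0.0236, with overlapping groups (exact permutation p = 0.7).

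The other genes of the pathway were counted list by list. Of the other class II chain genes, H2-DMb2 and H2-Ob passed the filter, both under 3 CPM in BMDMs, and neither passed the threshold. H2-Ob, whose promoter is shown above, was at 2.55 ± 0.210 CPM in WT and 2.38 ± 0.638 CPM in PHD2cko. Of the 12 genes besides the members that held the X and Y pair and were tested, 1 was lower, where 3.35% of all genes were called lower. It was Aars, a tRNA synthetase gene (log2 fold change −0.40, edgeR adjusted p = 0.000112), and the median log2 fold change of the 12 was −0.02.

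Among 10 genes of class II processing and turnover, such as cathepsins and the ubiquitin ligases that remove class II from the surface, 1 was higher, where 3.38% of all genes were called higher, and none lower. Ctsl, a cathepsin, rose from 1139 ± 21.3 to 1421 ± 24.2 CPM (log2 fold change 0.32, edgeR adjusted p = 0.00579). Ctss, the main protease of the invariant chain in antigen-presenting cells, was at 6517 ± 176 and 6540 ± 238 CPM (edgeR adjusted p = 1.0). March1, one of the ligases, was at 152 ± 8.62 and 132 ± 2.94 CPM (edgeR adjusted p = 0.23). In the promoter complex none of 12 genes passed the threshold in the fit of all 12 libraries. Its DNA-binding subunits Rfx5 (21.6 ± 0.390 and 18.8 ± 1.06 CPM), Rfxap (18.2 ± 1.19 and 18.9 ± 0.611 CPM) and Rfxank (17.9 ± 1.44 and 14.2 ± 0.977 CPM) had adjusted p from 0.0555 upwards in edgeR. Both counts depended on the fit. With the 6 BMDM libraries alone, where edgeR called 9.79% of all genes higher and 10.8% lower, 4 of the processing genes were higher and 2 lower (March1 and Sppl2a), and in the promoter complex 1 was higher (Nfya) and 3 lower (Crebbp, Rfx5 and Rfxank), while all 7 members remained lower.

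Of 17 genes of the interferon-γ pathway and its regulators of Ciita, 4 were lower and none higher, where 3.35% of all genes were called lower. Socs3, a feedback inhibitor of cytokine signalling, went from 53.2 ± 3.11 to 36.0 ± 1.24 CPM (log2 fold change −0.56, edgeR adjusted p = 0.00067). Irf4, a transcription factor of the interferon regulatory factor family, went from 10.3 ± 0.373 to 6.67 ± 0.250 CPM (log2 fold change −0.63, edgeR adjusted p = 0.0183). Irf2 had a log2 fold change of −0.28 (edgeR adjusted p = 0.0144) and Socs1, at 1.49 ± 0.251 and 0.817 ± 0.301 CPM, one of −0.89 (edgeR adjusted p = 0.0496). With each BMDM library left out in turn, 1 or 2 of the 17 passed. With the 6 BMDM libraries alone 7 were lower, Irf1 and Spi1 among them, where 10.8% of all genes were called lower. Irf1, an activator of the Ciita promoter, did not pass in the fit of all 12 libraries, at 123 ± 3.96 and 103 ± 5.86 CPM without overlap between the groups (log2 fold change −0.25, edgeR adjusted p = 0.0577). The receptor genes Ifngr1 and Ifngr2 and the kinase gene Jak1 had log2 fold changes from −0.04 to −0.03, and Spi1 and Irf8, myeloid transcription factors, of −0.12 and −0.06.

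Among 12 other genes known to be induced by interferon-γ, 5 were lower and none higher, where 3.35% of all genes were called lower. With each BMDM library left out in turn, 4 of the 12 passed. Cxcl10, a chemokine, fell from 18.8 ± 2.05 to 6.36 ± 0.715 CPM (log2 fold change −1.56, edgeR adjusted p = 0.000351). The guanylate-binding proteins Gbp5, Gbp2 and Gbp3 had log2 fold changes of −1.07, −0.99 and −0.91 (edgeR adjusted p = 6.01e-05, 0.000122 and 0.0299). Tap1, a peptide transporter of the class I pathway whose gene lies inside the class II region, had one of −0.40 (edgeR adjusted p = 0.0029). Of genes of MHC class I expression, Nlrc5, the class I transactivator, was at 62.2 ± 2.57 and 63.5 ± 2.08 CPM and B2m, the class I light chain, at 2150.0 ± 8.47 and 2182 ± 75.7 CPM (edgeR adjusted p = 0.954 and 0.958). The immunoproteasome subunit genes Psmb8 (151 ± 3.15 and 126 ± 4.18 CPM, edgeR adjusted p = 0.352) and Psmb9 (57.1 ± 3.70 and 49.1 ± 2.27 CPM, edgeR adjusted p = 0.147) did not pass, but their groups did not overlap. Of the 12 genes, 9 had every PHD2cko library below every WT library, where 15.6% of all genes did. The same number were lower with the 6 BMDM libraries alone, where 10.8% of all genes were called lower. Of 5 costimulatory genes, which give T cells their second signal, 2 were lower and none higher, beside the 3.35% of all genes called lower. Cd86 went from 17.1 ± 3.18 to 9.73 ± 0.189 CPM (log2 fold change −0.82, edgeR adjusted p = 0.0114) and Icosl from 24.3 ± 0.282 to 17.1 ± 2.13 CPM (log2 fold change −0.51, edgeR adjusted p = 0.00565). Without WT BMDM replicate 2 or BMDM PHD2cko replicate 1, 1 of the 5 passed. With the 6 BMDM libraries alone 4 were lower, beside the 10.8% of all genes.

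**Figure D2:**
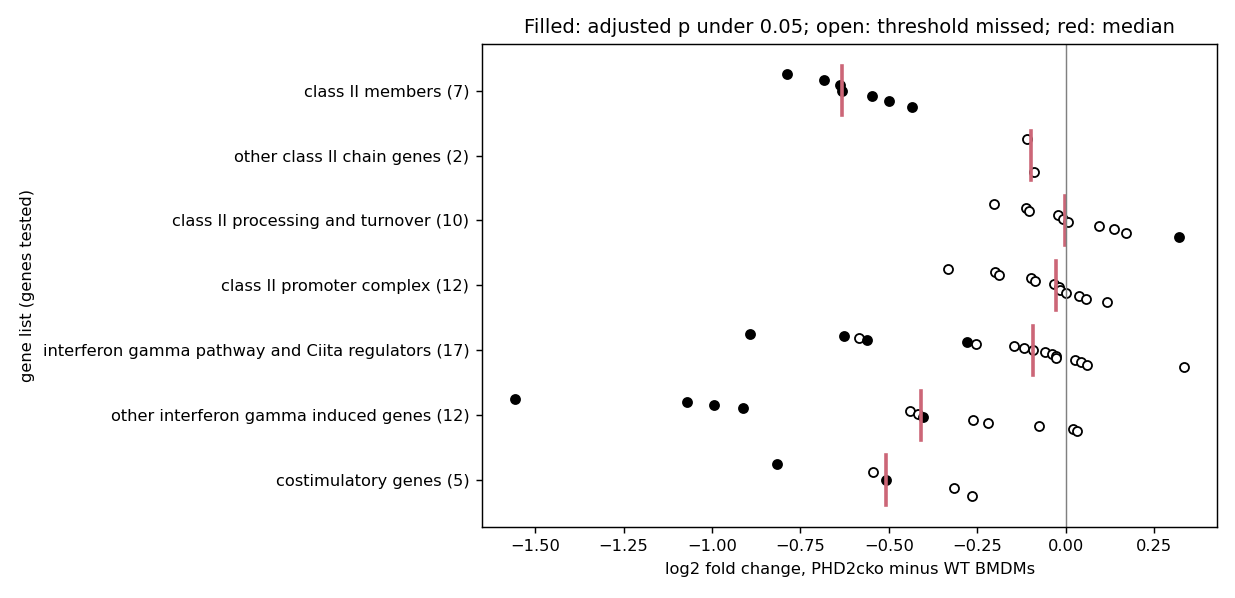
Log2 fold changes between PHD2cko and WT BMDMs (horizontal axis) for the 7 members and the tested genes of 6 lists (rows), with 1 point a gene, filled where edgeR's adjusted p was under 0.05 in the fit of all 12 libraries, and a red line at each median. The members lie between −0.79 and −0.43, while the promoter complex and the processing genes scatter around 0.

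In bulk RNA, fewer cells of a type and less RNA per cell cannot be told apart, so the markers of other cells that express class II were summed. The dendritic cell list, 10 genes, summed to 90.1–92.6 CPM in WT and to 124–136 CPM in PHD2cko BMDMs, the opposite direction to the members. Most of that sum was Itgax, which macrophages also express, at 84.9 ± 1.56 and 123 ± 6.01 CPM (edgeR adjusted p = 0.0262), and it was the only one of 8 tested that passed. The B cell list, 12 genes, summed to 227–236 CPM in WT and to 185–204 CPM in PHD2cko. Nearly all of it was Ighm (218 ± 4.95 and 180 ± 10.1 CPM, edgeR adjusted p = 0.0434), while Pax5, Blk and Fcmr had 0 counts in every BMDM library. Cd79b, a part of the B cell receptor, had 26, 35 and 41 counts in WT and 60, 51 and 64 in PHD2cko, higher without overlap but not past the threshold (edgeR adjusted p = 0.11), and Cd22 had 135 to 194 counts in each BMDM library, with overlapping groups. Igkc had 0 counts in WT and 12, 18 and 17 counts in PHD2cko, and passed the threshold as higher (edgeR adjusted p = 0.00572), the opposite direction to Ighm. Neutrophil markers stayed under 0.85 CPM in sum, and T and NK cell markers at or under 9.99 CPM. Ifng itself had 0 counts in all 6 BMDM libraries, which allows up to 3 counts per library. The part of these other cells in the levels of the members was not tested beyond these values.

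Position was considered next, since 5 of the 7 genes lie within 197 kb of chromosome 17 (chr17:34119541-34316674). Of 50 other tested genes within 500 kb of this span, 4 (8%) were lower and 1 higher, where 3.35% of all genes were called lower and 3.38% higher. The median log2 fold change of the 50 was −0.03. The lower ones were Daxx (−0.32), Slc39a7 (−0.31), Tap1 (−0.40) and Atf6b (−0.17), and the higher one was Angptl4 (1.11). Overlapping the span were 8 of the 50, Brd2 at its edge among them, of which Tap1 alone passed, and their median was −0.22. Both Ciita and Cd74, on other chromosomes, had more negative log2 fold changes than all 5 genes of the span.

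**Figure D3:**
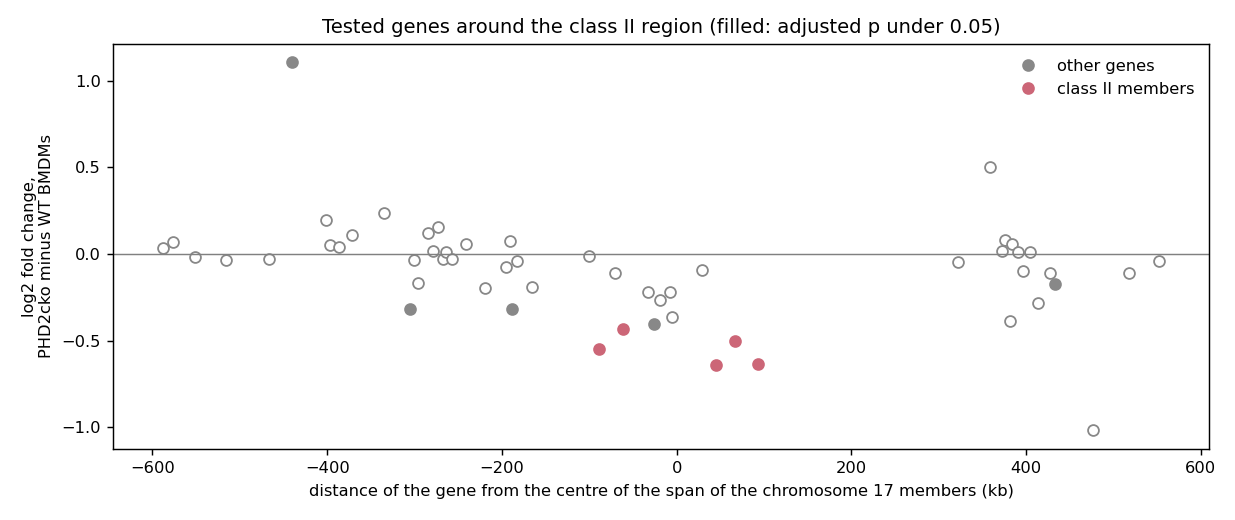
Log2 fold changes between PHD2cko and WT BMDMs (vertical axis) against the distance in kb from the centre of the span of the 5 chromosome 17 members, with 1 point a tested gene, filled where edgeR's adjusted p was under 0.05. The 5 members lie between −0.64 and −0.43, while the 50 other genes have a median of −0.03.

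Over the 6 BMDM libraries, the genes whose pattern was nearest to the mean of the members were sought among 11606 candidates, by the root mean square difference of centred log2 CPM. E2f2, a cell cycle transcription factor, was nearest (0.0228), followed by Aoah, an enzyme that deacylates lipopolysaccharide (0.0270), Ctsc, a lysosomal peptidase (0.0278), Lyz1 (0.0393), Emb (0.0420), Panx1 (0.0421), Tlr2 (0.0443), Ccr2 (0.0454), Rnd3 (0.0472) and Atf5 (0.0496). The members themselves lay between 0.0217 (H2-Ab1) and 0.112 (Ciita) from their own mean, so that several of these genes were as near to it as most members. Nearest to Ciita alone were Gm1966 (0.0505), Slc2a6 (0.0545) and Tmem38a (0.0586). With 6 libraries in 2 groups, this likeness is set mostly by the difference between the labels.

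The levels in macrophages were set beside those in 3T3 cells in WT medium. All 7 genes were higher in WT BMDMs, where 40.4% of all genes were called higher by edgeR. Summed over 3 libraries and scaled for depth, Cd74 was 815 times (95% counting interval 659–1020) and Ciita 150 times (108–215) the 3T3 level. The 3 chains were near the limit of detection in 3T3 cells, with 0, 2 and 0 counts of H2-Aa, 3, 2 and 2 of H2-Ab1, and 0, 0 and 1 of H2-Eb1. Their ratios were therefore wide, from 2226 (1080–5538) for H2-Ab1 to 9301 (2574–76809) for H2-Aa and 11637 (2088–459700) for H2-Eb1. The H2-DM genes differed from the rest: H2-DMa was 7.79 times (7.13–8.53) and H2-DMb1 7.25 times (6.74–7.81) higher in BMDMs. In 3T3 cells in WT medium the estimates were 8.95, 8.34 and 9.04 CPM for H2-DMa and at 15.1, 12.6 and 10.9 CPM for H2-DMb1. The uncertainty from shared reads applies to them here too, since Brd2 was at 259 ± 2.72 CPM and H2-DMb2 at 6.32 ± 0.307 CPM in these libraries, so how much of these counts came from the H2-DM genes was not tested. The same holds for Ciita, since Dexi was at 16.6 ± 2.23 CPM in WT medium and 14.8 ± 1.08 CPM in PHD2cko medium, and the counting is not stated to use strand. Every 3T3 value of Ciita may therefore hold Dexi reads. Per length, the order in 3T3 cells in WT medium was H2-DMb1 (23.1 ± 2.70), H2-DMa (14.5 ± 0.791), Cd74 (1.87 ± 0.441), Ciita (0.254 ± 0.0610) and H2-Ab1 (0.212 ± 0.0676), of which the last pair did not differ beyond their spread, with H2-Aa and H2-Eb1 below.

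The second question was whether medium from BMDMs labelled PHD2cko changed these genes in 3T3 cells. In all 7 the groups overlapped, where 31.9% of all genes had groups apart in either direction. H2-Ab1 alone passed the threshold as higher and none as lower, where 8.93% of all genes were called higher and 6.75% lower. H2-Ab1 had 3, 2 and 2 counts in WT medium and 8, 2 and 12 in PHD2cko medium, a ratio of 3.62 (95% counting interval 1.49–10.0; log2 fold change 1.79, SE 0.521, edgeR adjusted p = 0.0358). The call did not hold with limma-voom (adjusted p = 0.106) or without any one of the WT medium libraries or PHD2cko medium replicates 1 and 3 (edgeR adjusted p from 0.0525 to 0.218). Ciita had 11, 12 and 13 counts in WT medium and 25, 20 and 14 in PHD2cko medium (log2 fold change 0.91, SE 0.295, edgeR adjusted p = 0.0562), and passed without PHD2cko medium replicate 3 (edgeR adjusted p = 0.0209). With the DESeq2 Wald test Ciita and Cd74 also passed as higher (adjusted p = 0.0239 and 0.0172).

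Cd74 had 31, 37 and 17 counts in WT medium and 45, 19 and 52 in PHD2cko medium (log2 fold change 0.65, edgeR adjusted p = 0.118), and passed without PHD2cko medium replicate 2 (edgeR adjusted p = 0.00607). H2-Aa had 4, 0 and 1 counts in PHD2cko medium, a ratio of 2.88 to WT medium with a counting interval from 0.472 to 30.3, and H2-Eb1 had 0, 0 and 1 in each medium. A difference in these chains was not detectable at this depth. H2-DMa was at 8.78 ± 0.380 and 8.53 ± 1.62 CPM (log2 fold change −0.04, edgeR adjusted p = 0.864), and H2-DMb1 at 12.9 ± 2.09 and 10.8 ± 0.466 CPM (log2 fold change −0.25, edgeR adjusted p = 0.111). H2-DMb1 passed as lower without WT medium replicate 3 (edgeR adjusted p = 0.0203) and when its counts were added to those of H2-DMb2 (edgeR adjusted p = 0.0338), an alternative chosen after seeing the data.

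**Figure D4:**
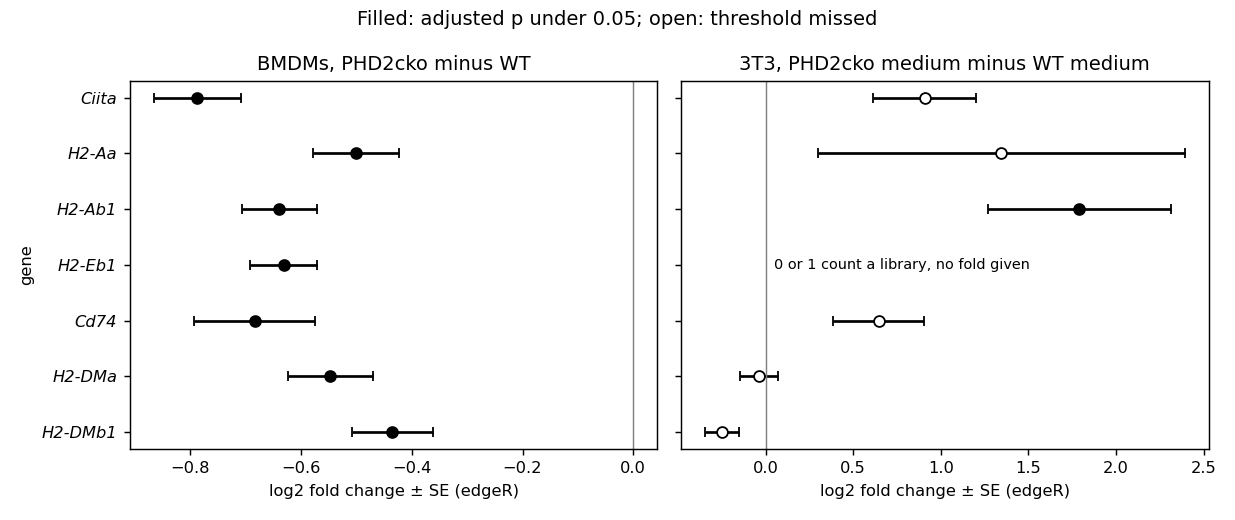
Log2 fold change ± SE (edgeR, horizontal axes with different scales) of the 7 genes in BMDMs (left) and in 3T3 cells (right), filled where the adjusted p was under 0.05. All 7 are filled and below 0 in BMDMs, and in 3T3 cells H2-Ab1 alone is filled, at 1.79.

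Macrophage transcripts moved with the medium in the 3T3 libraries. The 20 macrophage markers, as a share of their level in BMDMs of the matching label, were at 0.0868%, 0.0991% and 0.103% in WT medium and at 2.73%, 0.663% and 2.47% in PHD2cko medium. In edgeR 18 of the 20 passed the threshold as higher, where 8.93% of all genes were called higher. This marker share is that of a sum, and single markers stood on both sides of it. Cd5l was at 0.368 CPM in PHD2cko medium (7, 2 and 13 counts) and at 1217 CPM in PHD2cko BMDMs. Adgre1 was at 17.7 and 2314 CPM, and Cd14 at 26.8 and 303 CPM. The members did not all stand at the share of the sum. In PHD2cko medium, Cd74 was at 0.438%, 0.206% and 0.473% of its BMDM level and H2-Ab1 at 0.335%, 0.0936% and 0.471%, both below the marker share in all 3 libraries. H2-Aa was at no more than 0.127% and H2-Eb1 at no more than 0.0522%.

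Ciita was at 3.34%, 2.98% and 1.75% of its BMDM level in PHD2cko medium, above the marker share in replicates 1 and 2 and below it in replicate 3. In WT medium it was at 0.816%, 0.644% and 1.01%, above the marker share in all 3. Replicate 2 in PHD2cko medium had the lowest marker share and the lowest Cd74 and H2-Ab1 counts of its group. An alternative subtracted a BMDM profile from each 3T3 library in proportion to its macrophage markers. Cd74 and the 3 chains lay below the marker share in every PHD2cko medium library, and Ciita in replicate 3, so the subtraction takes those counts to about 0 by construction. With the subtraction the direction of Ciita turned (log2 fold change −0.36, edgeR adjusted p = 0.778) and H2-DMb1 was called lower (edgeR adjusted p = 0.0308). These values rest on the scale set by the summed markers, and no conclusion is drawn from them. How much of the members' counts came from macrophage RNA was not tested.

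**Figure D5:**
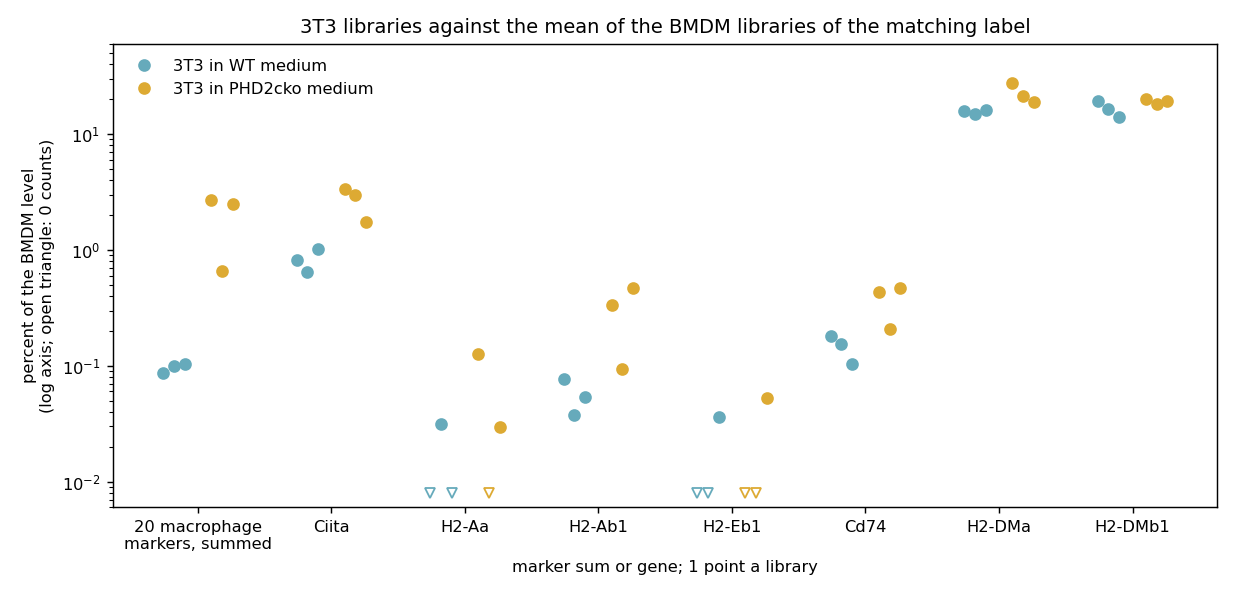
Level in each 3T3 library as a percent of the mean of BMDMs of the matching label (log axis, open triangles for 0 counts), for the sum of 20 macrophage markers and for the 7 genes. In PHD2cko medium the markers stand at 0.663–2.73% and Cd74 at 0.206–0.473%, while the H2-DM genes stand at 14.1% or more in both media.

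Whether the effect of the label, which is the genotype in BMDMs and the medium in 3T3 cells, differed between the cell types was tested as an interaction. It passed the threshold, with the effect in 3T3 cells above that in BMDMs, for 4 of the 7 genes, where 7.71% of all genes were called in this direction. Ciita differed by 1.70 on the log2 scale (SE 0.306, edgeR adjusted p = 0.0029), H2-Ab1 by 2.43 (SE 0.523, edgeR adjusted p = 0.00869), Cd74 by 1.33 (SE 0.282, edgeR adjusted p = 0.00803) and H2-DMa by 0.51 (SE 0.132, edgeR adjusted p = 0.0243). H2-DMb1, lower in BMDMs and at −0.25 in 3T3 cells, differed by 0.19 (SE 0.122, edgeR adjusted p = 0.374), and H2-Aa by 1.84 (SE 1.08, edgeR adjusted p = 0.314). H2-Eb1, with 0 or 1 count per 3T3 library, did not pass (edgeR adjusted p = 0.861). The macrophage markers were higher in PHD2cko medium as given above, and their part in these differences was not tested.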

How the data were processed

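The authors quantified polyA RNA from single reads (NextSeq 500) with kallisto on GRCm38 (its version and annotation are not given in the sources used here) and deposited estimated counts per gene, without normalization, as whole numbers. How they became whole is not stated. Of 32544 genes, 14285 passed filterByExpr, and 18259 were left out. All 12 libraries were fitted together in edgeR 4.0.16 (R 4.3.3) by TMM and the two-sided quasi-likelihood test, adjusted by Benjamini-Hochberg over the 14285 genes, at a threshold of 0.05, with SE as the log2 fold change over the root of F. CPM are over the TMM-scaled library size, and percentages of the BMDM level are over the total count. Ratios of summed counts have exact 95% intervals, which cover counting error only. Library totals ran from 15516465 to 25199770. Positions come from GENCODE on GRCm38, where all 7 genes matched, and levels per length use the mean annotated transcript. Promoters come from RefSeq. Genes were named by rule: the members in every comparison, up to 4 called genes of each list with the largest change at 1 CPM or more, the nearest 10 (3 for Ciita) and the region within 500 kb; other genes named, including those that missed the threshold, were picked with their values in view. The members and lists were chosen with earlier results of these data known. The fit was tested on simulated data, where the share of false calls lay above the threshold in the BMDM comparison and below it in 3T3 cells. Alternatives were DESeq2 size factors, the DESeq2 1.42.0 Wald test, limma 3.58.1 with voom (the study's method), other filters, a replicate block, each cell type alone, each library left out, and the macrophage share subtracted. No replicate pairs held counts that agreed within sampling noise, and same-numbered libraries did not deviate together. Results for some listed genes are not reported here.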

Additional observations from a re-analysis of the deposited data

Results flagged for a closer look

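For 4 of the 7 genes, the effect of the PHD2cko label differed between 3T3 cells and BMDMs by the interaction test of edgeR. The label is the genotype of the cells in BMDMs and the conditioned medium in 3T3 cells. Macrophage markers were higher in PHD2cko medium, and their part was not tested. The differences, as the log2 effect in 3T3 cells minus that in BMDMs, were 1.70 for Ciita (adjusted p = 0.0029), 2.43 for H2-Ab1 (adjusted p = 0.00869), 1.33 for Cd74 (adjusted p = 0.00803) and 0.51 for H2-DMa (adjusted p = 0.0243), each with 3 libraries a group. The 3T3 side rests on 2 to 52 counts per library for the first 3 genes, and that of Ciita may hold reads of Dexi. H2-Ab1 lost the call without 3T3 PHD2cko medium replicate 3 (adjusted p = 0.0568). H2-DMa lost it without WT BMDM replicate 1 or 2, BMDM PHD2cko replicate 1, or 3T3 WT medium replicate 2 (adjusted p from 0.0521 to 0.0693).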

How the results depend on the processing

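The 7 calls as lower in BMDMs and the 7 as higher in BMDMs than in 3T3 cells held in every alternative and with each library left out, with log2 fold changes in BMDMs from −0.82 to −0.40. In 3T3 cells the 1 call as higher became 3 with the DESeq2 Wald test (Ciita and Cd74 added) and 0 with limma-voom, a replicate block, the 3T3 libraries alone and the macrophage share subtracted (in the last pair H2-Ab1 was not tested, as it was filtered out or left with 0 counts), and 0 to 2 with 1 library left out. The 18 macrophage markers called higher there numbered 17 to 20 otherwise and 11 with the share subtracted, which those markers set. With the share subtracted, Ciita (log2 −0.36) and Cd74 (−6.03) turned negative; for Cd74 (adjusted p = 0.0294, lower) this follows from its level below the subtracted share. With a 3T3 library left out, direction also turned for H2-DMa (from −0.20 to 0.081; positive without WT medium replicate 1 or PHD2cko medium replicate 3) and H2-Aa (from −0.16 to 3.74; negative without PHD2cko medium replicate 1). The interaction calls, 4, numbered 3 to 5 throughout. In BMDMs alone, called genes numbered 6 (processing, 2 with DESeq2), 4 (promoter complex, 1 with DESeq2 or limma-voom), 7 (interferon-γ pathway), 9 (other induced genes) and 4 (costimulatory). By edgeR, 9.79% of all genes were called higher there and 10.8% lower. With 1 library left out, called genes numbered 1 to 2 in the interferon-γ pathway, 4 among the other induced genes and 1 to 2 in the costimulatory list. By exon union, levels per length in WT BMDMs were 1819 (Cd74), 268 (H2-Ab1), 264 (H2-Eb1), 216 (H2-Aa), 162 (H2-DMb1), 57.5 (H2-DMa) and 25.1 (Ciita). The 4 ratios whose groups did not overlap kept their direction, and that of H2-Eb1 to H2-Ab1 lay between −0.0155 and 0.0286 (log2). Over all genes, 961 calls in BMDMs became 2534 in BMDMs alone and 527 to 664 with a BMDM library left out, and 2240 in 3T3 cells became 912 in 3T3 cells alone and 1260 to 2757. The cause of these changes was not tested. The replicate block left all 7 members lower in BMDMs and H2-Ab1 in 3T3 cells at an adjusted p of 0.0571, and no pairing was found (correlations of deviations from −0.0245 to 0.0567). Single 3T3 libraries with under 60 counts limit Ciita, Cd74 and the chains there.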
